A study of Mus musculus with 4 samples.

Results

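The 10 genes were Il31ra, Peak1, Mpp7, Kcnq5, Cpne7, Pawr, Pard3, Trim36, Nav1 and Cbfa2t3. These were followed through single-cell RNA libraries of cells sorted for CD4 from mouse tumours. They had been picked for a high level in CD4 T cells of mice given Tc9 cells, and all 10 were found among the 32285 genes of the count matrices. The difference between the libraries in CD4 T cells therefore chose these genes, and it is given below as a description only. Because they were named as marking helper cells of Tc9, their level in helper against other cells of Tc9 is a description as well. The rule did not state a use of the Tc1 library's cell classes, of CD8 T cells or of clonotype sizes.

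The libraries came from B6 mice of wild-type genotype, which carry Thy1.2 and bore chimeric tumours. Each mouse had received Thy1.1 Pmel-1 cells, transgenic CD8 T cells that recognise a melanocyte antigen, together with an adjuvant. In the Tc9 group these cells had been polarised towards interleukin-9 production, and in the Tc1 group towards interferon-gamma production. Tumours of 3 mice were pooled per group on day 30 after tumour inoculation, and each pool gave 1 RNA library and 1 T cell receptor library after sorting for CD4. With 1 library per group no test between groups was possible, and a difference between the treatments cannot be told apart from a difference between these pools or libraries. All intervals are 95% intervals of counting error only, and they are too narrow because molecules of the same cell are not independent.

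Il31ra encodes the receptor chain that pairs with the oncostatin M receptor to bind interleukin-31, a cytokine of type 2 helper cells, and signals through JAK and STAT proteins. Pard3 is the scaffold of the PAR polarity complex, which places atypical protein kinase C at one side of a cell, Pawr is a pro-apoptotic protein that binds atypical protein kinase C, and Mpp7 is a membrane scaffold of the polarity proteins. Peak1 is a kinase-like scaffold of the cytoskeleton, Kcnq5 a voltage-gated potassium channel, Cpne7 a calcium-dependent lipid-binding copine, Trim36 a ubiquitin ligase, Nav1 the microtubule-binding neuron navigator, and Cbfa2t3 a corepressor of the ETO family. Cd40lg, used below to gate helper cells, is the ligand by which CD4 T cells help antigen-presenting cells, and Foxp3 marks regulatory T cells.

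The promoter windows of 4 of these genes show how unlike they are in sequence: Il31ra and Peak1 stand for the genes that were higher in the Tc9 library in every T cell class, Pawr for those higher in helper than in Foxp3 cells of both libraries, and Nav1 for those most abundant in myeloid cells. The windows run from 250 bases before to 50 bases after the annotated start (RefSeq, GRCm38.p6), 5′ to 3′ on the strand of the gene. They lie at chr13:112580613-112580912 (minus strand, Il31ra), chr9:56418001-56418300 (minus strand, Peak1), chr10:108331939-108332238 (plus strand, Pawr) and chr1:135585306-135585605 (minus strand, Nav1). The Nav1 window lies inside the annotated span of the gene. Capitals mark matches to the NFAT core letters GGAAAA on either strand.
Il31ra: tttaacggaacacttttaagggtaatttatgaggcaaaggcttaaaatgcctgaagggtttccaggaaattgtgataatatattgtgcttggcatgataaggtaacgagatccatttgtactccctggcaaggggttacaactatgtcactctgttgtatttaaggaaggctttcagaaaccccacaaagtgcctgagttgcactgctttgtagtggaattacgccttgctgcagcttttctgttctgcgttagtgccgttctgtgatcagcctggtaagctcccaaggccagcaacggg
Peak1: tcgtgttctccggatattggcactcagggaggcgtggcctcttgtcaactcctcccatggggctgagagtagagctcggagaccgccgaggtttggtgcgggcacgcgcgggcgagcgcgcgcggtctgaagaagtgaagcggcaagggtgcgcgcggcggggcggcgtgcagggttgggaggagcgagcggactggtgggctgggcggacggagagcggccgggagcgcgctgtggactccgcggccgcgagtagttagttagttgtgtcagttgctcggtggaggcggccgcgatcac
Pawr: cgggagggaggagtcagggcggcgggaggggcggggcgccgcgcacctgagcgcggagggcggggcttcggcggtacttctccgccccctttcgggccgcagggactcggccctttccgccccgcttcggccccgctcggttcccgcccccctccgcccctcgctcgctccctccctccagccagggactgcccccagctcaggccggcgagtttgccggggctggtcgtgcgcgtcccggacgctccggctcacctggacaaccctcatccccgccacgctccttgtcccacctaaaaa
Nav1: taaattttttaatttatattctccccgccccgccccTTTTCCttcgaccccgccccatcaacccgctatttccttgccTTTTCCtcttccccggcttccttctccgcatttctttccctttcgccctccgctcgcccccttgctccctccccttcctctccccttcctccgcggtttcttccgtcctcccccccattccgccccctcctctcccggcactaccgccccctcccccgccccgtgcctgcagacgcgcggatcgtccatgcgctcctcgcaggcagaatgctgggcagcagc

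A window was found for 7 of the 10 genes. G and C made up 44.7% of the Il31ra window, 68.7% of the Peak1 window, 75% of the Pawr window and 63.3% of the Nav1 window, against a median of 52.7% over the 32851 windows of all genes. Motif letters were searched on both strands, and overlapping matches of the 5 motifs were allowed. Nav1 had 2 matches to the NFAT letters, found in 23.4% of all windows, and Kcnq5 had 1. None of the 7 genes had a match to the AP-1 letters TGANTCA, the GATA letters AGATAA or the RUNX letters TGTGGT, which occurred in 7.81%, 11.2% and 16.8% of all windows. The NF-kB motif, in 50.8% of all windows, matched 3 times in the Pawr window and in neither the Il31ra nor the Peak1 window. A match describes letters and not a binding site.

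The deposited matrices held 50713493 unique molecular identifiers (UMIs) in 8449 barcodes of the Tc9 library and 106053410 UMIs in 13406 barcodes of the Tc1 library, of which 8204 barcodes in Tc9 and 11933 in Tc1 passed the filters. A gate on T cell markers with a Cd4 UMI and no Cd8a or Cd8b1 UMI held 4330 CD4 T cells in Tc9 and 1370 in Tc1, with medians of 5538 and 3767 UMIs. The barcodes of 148 cells occurred in both libraries. RNA of other cells differed between them: in CD4 T cells the 8 macrophage markers summed to 13.2 UMIs per 1000000 UMIs (CPM) in Tc9 and 624 CPM in Tc1, the 4 antigen-presentation genes to 172 CPM in Tc9 and 5400 CPM in Tc1, and the 4 red cell genes to 0.147 CPM in Tc9 and 2076 CPM in Tc1. None of the 8 macrophage markers was at 0 in either library.

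In CD4 T cells 6 of the 10 genes were at least 1.5-fold higher in Tc9, 3 lay between and 1 was lower, beside 9.03% higher and 24.6% lower of the 8520 genes that reached 10 CPM in either library. Because the genes were chosen on this contrast, nothing is read from that count. The median log2 ratio of the 10 genes was 1.28, and that of all 8520 genes was -0.14. The 6 higher genes were Il31ra, Peak1, Pawr, Cpne7, Mpp7 and Kcnq5. Pard3, Trim36 and Nav1 lay between, and the direction of Cbfa2t3 depended on how cells with RNA of other cells were treated. A high level within Tc9, which the rule named, is not judged by this ratio between libraries. A restriction to helper cells was not seen for Il31ra, Peak1 or Mpp7. Pard3, Cpne7, Pawr and Trim36 were low in Foxp3 cells but not restricted to Cd40lg cells, as the classes below show.

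Il31ra, the interleukin-31 receptor chain, had 270.6 CPM (264 to 277) in CD4 T cells of Tc9 and 47.7 CPM (43.1 to 52.7) in those of Tc1. Its log2 ratio was 2.50 (2.36 to 2.66), the 5th highest of the 8520 genes. After each cell was thinned to 2000 UMIs, so that depth was equal, 30.4% of CD4 T cells in Tc9 and 8.68% in Tc1 had an Il31ra UMI. Without thinning these shares were 54.5% in Tc9 and 19.4% in Tc1.

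Peak1, the cytoskeletal scaffold, had 1082 CPM in CD4 T cells of Tc9 and 259 CPM in those of Tc1, a log2 ratio of 2.06 (1.997 to 2.13). It was detected in 63.6% of thinned CD4 T cells in Tc9 and in 40.6% in Tc1. A single cell of Tc9 held 597 Peak1 UMIs, against a mean of 7.88 UMIs per positive cell in that library. The noncoding gene Peak1os overlaps it, and whether counting used the strand is not given in the sources used here.

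Mpp7 and Kcnq5 were the other abundant members. Mpp7 had 255 CPM in Tc9 and 90.7 CPM in Tc1 (log2 ratio 1.49, 1.38 to 1.60), and Kcnq5 had 320 CPM in Tc9 and 152 CPM in Tc1 (1.07, 0.99 to 1.16). Thinned detection was 32.2% in Tc9 and 17.5% in Tc1 for Mpp7, and 35.8% in Tc9 and 22.5% in Tc1 for Kcnq5. In myeloid cells the thinned share with a Mpp7 UMI was 38.2% in Tc9 and 9.54% in Tc1, so the share of Mpp7 in Tc9 CD4 T cells did not exceed that of Tc9 myeloid cells.

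Cpne7 and Pawr were less abundant. Cpne7 had 44.4 CPM in Tc9 and 13.8 CPM in Tc1 (1.69, 1.41 to 1.98), and Pawr had 28.3 CPM in Tc9 and 8.26 CPM in Tc1 (1.78, 1.42 to 2.16). Thinned detection of Cpne7 was 7.83% in Tc9 and 4.34% in Tc1, and that of Pawr was 5.40% in Tc9 and 1.70% in Tc1. The annotation places the coding gene Gm40755 over part of Pawr, so that their reads may not be separable.

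Pard3, Trim36 and Nav1 lay between the limits. Pard3 had 63.5 CPM in Tc9 and 46.7 CPM in Tc1 (0.44, 0.28 to 0.61), and Trim36 had 30.5 CPM in Tc9 and 22.1 CPM in Tc1 (0.47, 0.23 to 0.71). Nav1 had 34.7 CPM in Tc9 and 39.2 CPM in Tc1, a log2 ratio of -0.17 (-0.36 to 0.01). Cbfa2t3 was the lower gene, with 20.4 CPM in Tc9 and 32.2 CPM in Tc1 (-0.66, -0.87 to -0.44), although 3.42% of thinned cells in Tc9 and 3.41% in Tc1 had a UMI of it. This direction turned in cells with little RNA of other cells: the log2 ratio was 1.07 among cells with no macrophage or haemoglobin UMI and 0.47 (0.15 to 0.82) under the limit on antigen-presentation UMIs described below.

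**Figure D1:**
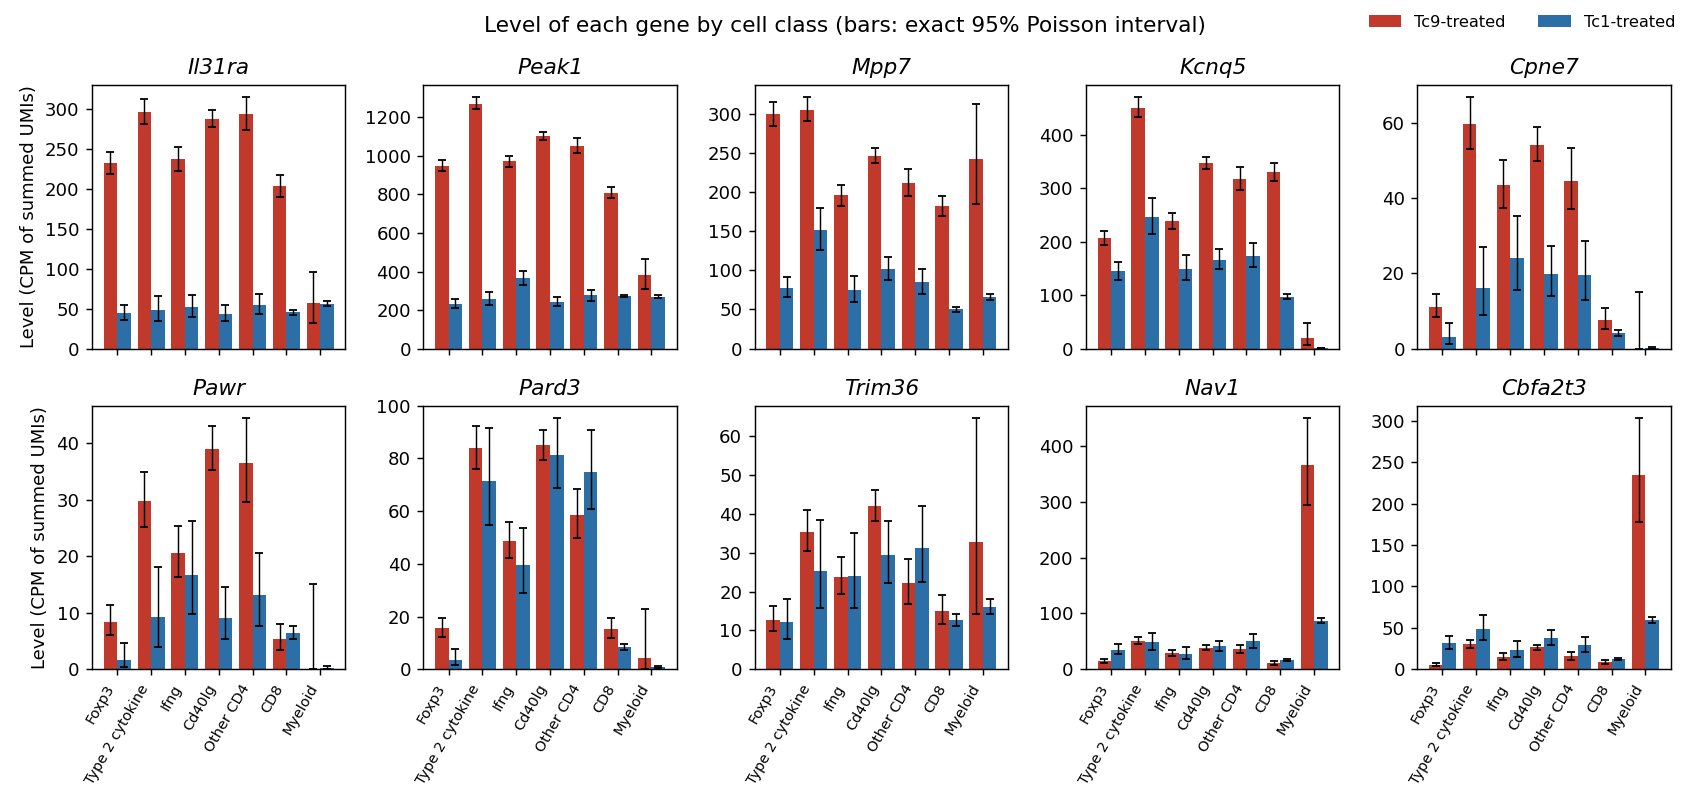
Level of each gene (CPM of summed UMIs, linear axis from 0, scale differing between panels) in 7 cell classes, with Tc9 bars left of Tc1 bars and exact 95% Poisson intervals. Il31ra and Peak1 are higher in Tc9 in every T cell class, Cpne7, Pawr and Pard3 are low in Foxp3, CD8 and myeloid cells, and Nav1 and Cbfa2t3 are highest in myeloid cells.

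CD4 T cells were divided by UMIs of marker genes, in this order, into cells with Foxp3 (618 in Tc9, 166 in Tc1), with a type 2 cytokine, that is Il4, Il5 or Il13 (692 in Tc9, 147 in Tc1), with Ifng (677 in Tc9, 192 in Tc1), with Cd40lg (1731 in Tc9, 377 in Tc1), naive-like cells (43 in Tc9, 169 in Tc1) and other CD4 T cells (569 in Tc9, 319 in Tc1). CD8 T cells numbered 458 in Tc9 and 2299 in Tc1, myeloid cells 60 in Tc9 and 2448 in Tc1, and NK cells 53 in Tc9 and 29 in Tc1. The classes are gates and not clusters, and a cell whose marker was missed falls into a later class. A check gene of the Foxp3 class, Ctla4, had 835 CPM there in Tc9 and 838 CPM in Tc1, against 96.1 CPM in the Cd40lg class of Tc9 and 75.4 CPM in that of Tc1.

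Il31ra was spread over all T cell classes of the Tc9 library, with 41 UMIs in the 43 naive-like cells. Its level in Tc9 was 296 CPM in type 2 cytokine cells, 293 in other CD4 T cells, 287 in Cd40lg cells, 237 in Ifng cells, 232 in Foxp3 cells and 203 in CD8 T cells. In Tc1 the same classes lay between 43.9 CPM in Cd40lg cells and 54.4 CPM in other CD4 T cells, and CD8 T cells had 45.3 CPM. The lowest of these classes in Tc9 therefore exceeded the highest in Tc1. In myeloid cells Il31ra was alike, at 57.4 CPM in Tc9 (14 UMIs) and 56.2 CPM in Tc1, so the level of Tc1 T cells did not exceed that of Tc1 myeloid cells. The thinned share of cells with an Il31ra UMI was 11.8% in Tc9 myeloid cells (34 cells) and 10.4% in Tc1 myeloid cells, and its share of 8.68% in Tc1 CD4 T cells did not exceed that of Tc1 myeloid cells. For Peak1 these shares were 35.3% in Tc9 myeloid cells and 35.5% in Tc1 myeloid cells, and for Kcnq5 they were 0% in Tc9 and 0.237% in Tc1 myeloid cells.

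Peak1 behaved in the same manner. It ranged from 809 CPM in CD8 T cells to 1272 CPM in type 2 cytokine cells of Tc9, and from 203 CPM in naive-like cells to 365 CPM in Ifng cells of Tc1. Myeloid cells had 382 CPM in Tc9 and 269 CPM in Tc1. NK cells of Tc9 also carried both genes, with 275 CPM of Il31ra and 1264 CPM of Peak1 in 53 cells. The 29 NK cells of Tc1 held 7 Il31ra and 86 Peak1 UMIs.

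The rule did not state a use of CD8 T cells, and whether they bore on the choice of the genes is not known. In CD8 T cells 6 of the 10 were at least 1.5-fold higher in Tc9, beside 14.5% higher of 8654 genes. There 0 were as much lower, beside 27%. Il31ra had 203 CPM in Tc9 and 45.3 CPM in Tc1 (log2 ratio 2.16, 2.03 to 2.30), Mpp7 182 CPM in Tc9 and 50.2 CPM in Tc1 (1.86, 1.72 to 1.99), Kcnq5 331 CPM in Tc9 and 97.1 CPM in Tc1 (1.77, 1.67 to 1.87), and Peak1 809 CPM in Tc9 and 273 CPM in Tc1 (1.57, 1.504 to 1.63). Pard3, with 15.2 CPM in Tc9 and 8.42 CPM in Tc1 (0.85), and Cpne7, with 7.72 CPM in Tc9 and 4.04 CPM in Tc1 (0.93), made up the 6, the last from levels under 10 CPM. Pawr did not share the pattern, with 5.38 CPM in Tc9 and 6.45 CPM in Tc1 (-0.26, -0.97 to 0.38). The CD8 gate of Tc9 also held genes of the CD4 classes: Foxp3 had 97.8 CPM there in Tc9 and 6.98 CPM in Tc1, Cd40lg 95.9 CPM in Tc9 and 14.1 CPM in Tc1, and Gata3 263 CPM in Tc9 and 42.4 CPM in Tc1. Their part in the CD8 ratios was not tested. The 2 beta chains found in both libraries lay on 488 receptor barcodes of Tc9 and 60 of Tc1. Of these, 32 in Tc9 and 1 in Tc1 were in the CD4 gate. How many were in the CD8 gate was not counted, and their part in the CD8 ratios was not tested either.

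**Figure D2:**
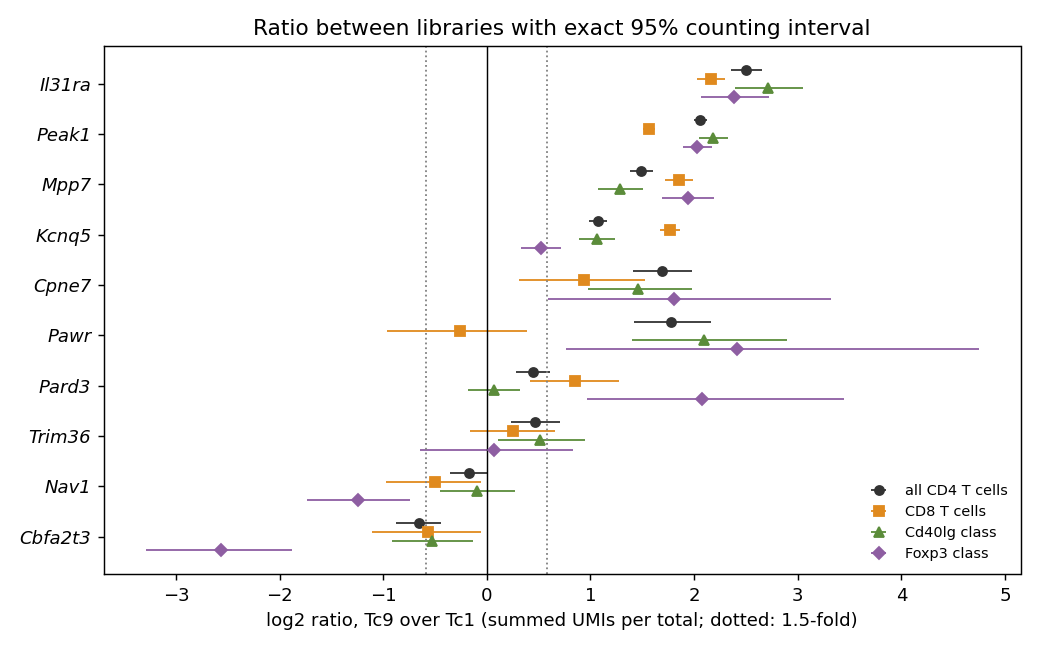
Log2 ratio of Tc9 over Tc1 for each gene in all CD4 T cells, CD8 T cells, the Cd40lg class and the Foxp3 class, with exact 95% counting intervals and dotted lines at 1.5-fold. Il31ra, Peak1 and Mpp7 lie right of the upper line in all 4 populations, and the Foxp3 values of Nav1 and Cbfa2t3, -1.24 and -2.57, lie farthest left.

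Within CD4 T cells the count of genes at least 1.5-fold higher in Tc9 was 6 in Cd40lg cells (8.72% of all genes tested), 6 in type 2 cytokine cells (11.5%), 5 in Ifng cells (11.7%), 6 in other CD4 T cells (10.9%) and 6 in Foxp3 cells (20.4%), Pawr in the last from under 10 CPM. The count at least as much lower was 0 in Cd40lg cells (25.9%), 1 in type 2 cytokine cells (27.4%), 1 in Ifng cells (26%), 1 in other CD4 T cells (27.4%) and 2 in Foxp3 cells (27.5%). Il31ra, Peak1 and Mpp7 were among the higher genes in all 5 classes. Long genes were higher in Tc9 more often than these shares over all genes, as given below. In Cd40lg cells Pawr had 38.9 CPM in Tc9 and 9.09 CPM in Tc1 (2.10, 1.40 to 2.89), while Pard3 had 85.1 CPM in Tc9 and 81.3 CPM in Tc1 (0.07, -0.18 to 0.32). In Ifng cells Pawr had 20.5 CPM in Tc9 and 16.6 CPM in Tc1 (0.30), so the size of its ratio depended on the class.

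A second pattern was a higher level in Cd40lg than in Foxp3 cells, seen within each library. Pard3 had 85.1 CPM in Cd40lg cells and 15.6 CPM in Foxp3 cells of Tc9 (log2 ratio 2.45, 2.11 to 2.81), and 81.3 CPM in Cd40lg cells and 3.69 CPM in Foxp3 cells of Tc1 (4.46, 3.38 to 5.80). Cpne7 had 54.2 CPM in Cd40lg cells and 11.1 CPM in Foxp3 cells of Tc9 (2.29), and 19.8 CPM in Cd40lg cells and 3.16 CPM in Foxp3 cells of Tc1 (2.65). Pawr had 38.9 CPM in Cd40lg cells and 8.41 CPM in Foxp3 cells of Tc9 (2.21), and 9.09 CPM in Cd40lg cells and 1.58 CPM, from 3 UMIs, in Foxp3 cells of Tc1 (2.52, 0.73 to 4.94). Trim36 had 42.1 CPM in Cd40lg cells and 12.7 CPM in Foxp3 cells of Tc9 (1.73), and 29.4 CPM in Cd40lg cells and 12.1 CPM in Foxp3 cells of Tc1 (1.28). These 4 genes were therefore higher in Cd40lg than in Foxp3 cells of both libraries. Other CD4 T cells, gated without a Cd40lg UMI, also exceeded Foxp3 cells, so the pattern was not particular to helper cells. In Tc1 they had 74.7 CPM of Pard3, 19.6 of Cpne7, 13.1 of Pawr and 31.2 of Trim36. In Tc9 they had 58.6 CPM of Pard3, 44.6 of Cpne7, 36.5 of Pawr and 22.1 of Trim36.

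As a description, 7 of the 10 genes were at least 1.5-fold higher in Cd40lg than in Foxp3 cells of Tc9, where 3.99% of 7901 genes were, and 4 in Tc1, where 14.2% of 8947 genes were. Nav1 and Cbfa2t3 also passed in Tc1 once antigen-presentation UMIs were limited, as given below. Kcnq5 passed the limit in Tc9 only, with log2 ratios of 0.74 in Tc9 and 0.20 in Tc1. Il31ra (0.31 in Tc9 and -0.01 in Tc1) and Peak1 (0.22 in Tc9 and 0.06 in Tc1) did not differ by 1.5-fold between the classes, and Mpp7 was at -0.28 in Tc9 and 0.37 in Tc1. Against CD8 T cells, 6 of the 10 were higher in Cd40lg cells of Tc9 (7.95% of all genes tested) and 7 in those of Tc1 (15.1%). Pard3 showed this in both, with log2 ratios of 2.48 in Tc9 and 3.27 in Tc1. Type 2 cytokine cells exceeded Cd40lg cells by 1.5-fold for 0 of the 10 genes in either library, where 3.64% of genes in Tc9 and 8.46% in Tc1 did. The medians over the 10 genes were 0.17 in Tc9 and 0.12 in Tc1. Naive-like cells, given as UMIs, held 3 Pard3, 1 Cpne7 and 0 Pawr UMIs in the 43 cells of Tc9, and 12 Pard3, 2 Cpne7 and 3 Pawr UMIs in the 169 cells of Tc1.

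**Figure D3:**
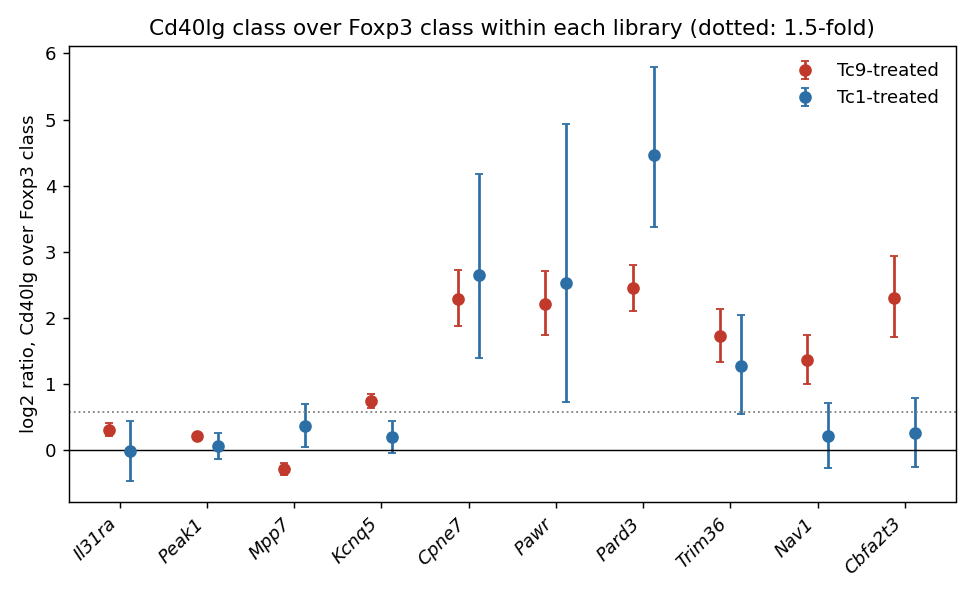
Log2 ratio of the level in Cd40lg cells over that in Foxp3 cells within each library, Tc9 left of Tc1, with exact 95% counting intervals and a dotted line at 1.5-fold. Cpne7, Pawr, Pard3 and Trim36 lie above the line in both libraries, and Kcnq5, Nav1 and Cbfa2t3 only in Tc9, where Nav1 is at 1.36 and Cbfa2t3 at 2.30, while in Tc1 they are at 0.22 and 0.26, which become 1.08 and 2.80 under the limit on antigen-presentation UMIs.

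Nav1 and Cbfa2t3 had another pattern, being most abundant in myeloid cells. Nav1 had 365 CPM in Tc9 myeloid cells (89 UMIs in 60 cells) and 86.6 CPM in Tc1 myeloid cells, and Cbfa2t3 had 234 CPM in Tc9 (57 UMIs) and 59.5 CPM in Tc1. In contrast, Pard3, Cpne7, Pawr and Kcnq5 were nearly absent there, with 0.853, 0.0568, 0.284 and 1.08 CPM in Tc1 myeloid cells and 1, 0, 0 and 5 UMIs in Tc9 myeloid cells. In Foxp3 cells Nav1 had 15.0 CPM in Tc9 and 35.3 CPM in Tc1, and Cbfa2t3 had 5.33 CPM in Tc9 and 31.6 CPM in Tc1. The antigen-presentation gene H2-Aa moved with these values, at 22.4 CPM in Foxp3 cells of Tc9 and 1484 CPM in those of Tc1.

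A limit of 0.3% on antigen-presentation UMIs per barcode, chosen after seeing the data, left 4310 CD4 T cells in Tc9 and 1249 in Tc1. Cbfa2t3 in Foxp3 cells was then at 5.17 CPM in Tc9 and 3.75 CPM in Tc1, and Nav1 at 15.1 CPM in Tc9 and 17.3 CPM in Tc1. Over all CD4 T cells the log2 ratio of Tc9 over Tc1 turned to 0.47 (0.15 to 0.82) for Cbfa2t3 and 0.16 (-0.07 to 0.39) for Nav1. Under this limit the excess of Cd40lg over Foxp3 cells was seen in both libraries, with log2 ratios of 2.28 in Tc9 and 2.80 in Tc1 for Cbfa2t3 and of 1.35 in Tc9 and 1.08 in Tc1 for Nav1. Il31ra, with 272 CPM in Tc9 and 48.7 CPM in Tc1, hardly moved.

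Detection in single cells was compared after thinning, which left 4241 CD4 T cells in Tc9 and 1291 in Tc1 and set aside 89 shallower cells in Tc9 and 79 in Tc1. At least 2 of the 10 genes were found in 63.3% (61.8 to 64.7) of CD4 T cells in Tc9 and in 33.1% (30.5 to 35.7) in Tc1, and this difference also rests on the contrast used for the choice. The share was 74.4% in Tc9 and 49.0% in Tc1 in type 2 cytokine cells, 66.9% in Tc9 and 38.0% in Tc1 in Cd40lg cells, 56.4% in Tc9 and 40.3% in Tc1 in Ifng cells, and 54.6% in Tc9 and 19.1% in Tc1 in Foxp3 cells. At most 7 genes were found in a cell of Tc9 and 6 in a cell of Tc1. Restricted to the 6 less abundant genes, a group made after their values were seen, at least 1 of Nav1, Pawr, Cpne7, Pard3, Cbfa2t3 and Trim36 was present in 41.8% of type 2 cytokine cells, 35.4% of Cd40lg cells, 28.6% of Ifng cells and 10.5% (8.15 to 13.2) of Foxp3 cells in Tc9. In Tc1 it was present in 31.0% of type 2 cytokine cells, 29.1% of Cd40lg cells, 29.3% of Ifng cells and 7.41% (3.89 to 12.6) of Foxp3 cells. Foxp3 cells were below the 3 other classes in both libraries, and those 3 classes were not apart in Tc1, where their intervals overlapped.

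Co-detection within CD4 T cells was measured as the number of cells with both genes of a pair over the number that independent detection would give. The 45 pairs of the 10 genes had a median ratio of 1.13 in Tc9, against 1.01 for 78 pairs of 13 comparison genes, and 27 pairs with at least 5 expected cells had a median of 1.14 in Tc1, against 1.06 for 76 comparison pairs. Nav1 and Pard3 were found together in 72 cells of Tc9 where 27.6 were expected (2.61, 2.04 to 3.29), Cbfa2t3 and Pard3 in 35 where 15.7 were expected (2.23), and Cpne7 and Pawr in 31 where 17.9 were expected (1.73). Il31ra and Peak1 stayed close to independence, at 1.10 with each other in Tc9 and between 0.85 and 1.08 with the 8 other genes. In Tc9 14 pairs had an interval above 1 and 0 below, and in Tc1 5 were above and 0 below. Of the comparison pairs 13 were above and 17 below in Tc9 and 9 above and 3 below in Tc1, so pairs above 1 also occurred among those genes. A second random thinning put 13 pairs of the 10 genes above 1 in Tc9 and 7 in Tc1, with 10 in Tc9 and 4 in Tc1 above 1 in both draws. In Tc9 it put Nav1 with Pard3 at 1.82 and Nav1 with Cbfa2t3, first at 2.29, at 1.71 (1.01 to 2.70). Cbfa2t3 with Pard3 was not among the Tc9 pairs above 1 in both draws. Kcnq5 was above 1 in both draws of both libraries with Pard3, Cpne7 and Nav1. In the first draw these pairs were at 1.43 in Tc9 and 1.62 in Tc1 for Pard3, and 1.40 in Tc9 and 1.83 in Tc1 for Cpne7. Nav1 with Kcnq5 was at 1.26 in Tc9 and 1.63 in Tc1. Inside the Cd40lg class 3 of 42 pairs with at least 5 expected cells were above 1 in Tc9 and 0 of 13 in Tc1, where 1 was below. Inside the Foxp3 class 0 of 15 such pairs in Tc9 and 0 of 3 in Tc1 were above 1. In the type 2 cytokine class the counts were 0 of 36 in Tc9 and 0 of 7 in Tc1. The classes held fewer cells, so these counts are not read as a loss of co-detection.

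**Figure D4:**
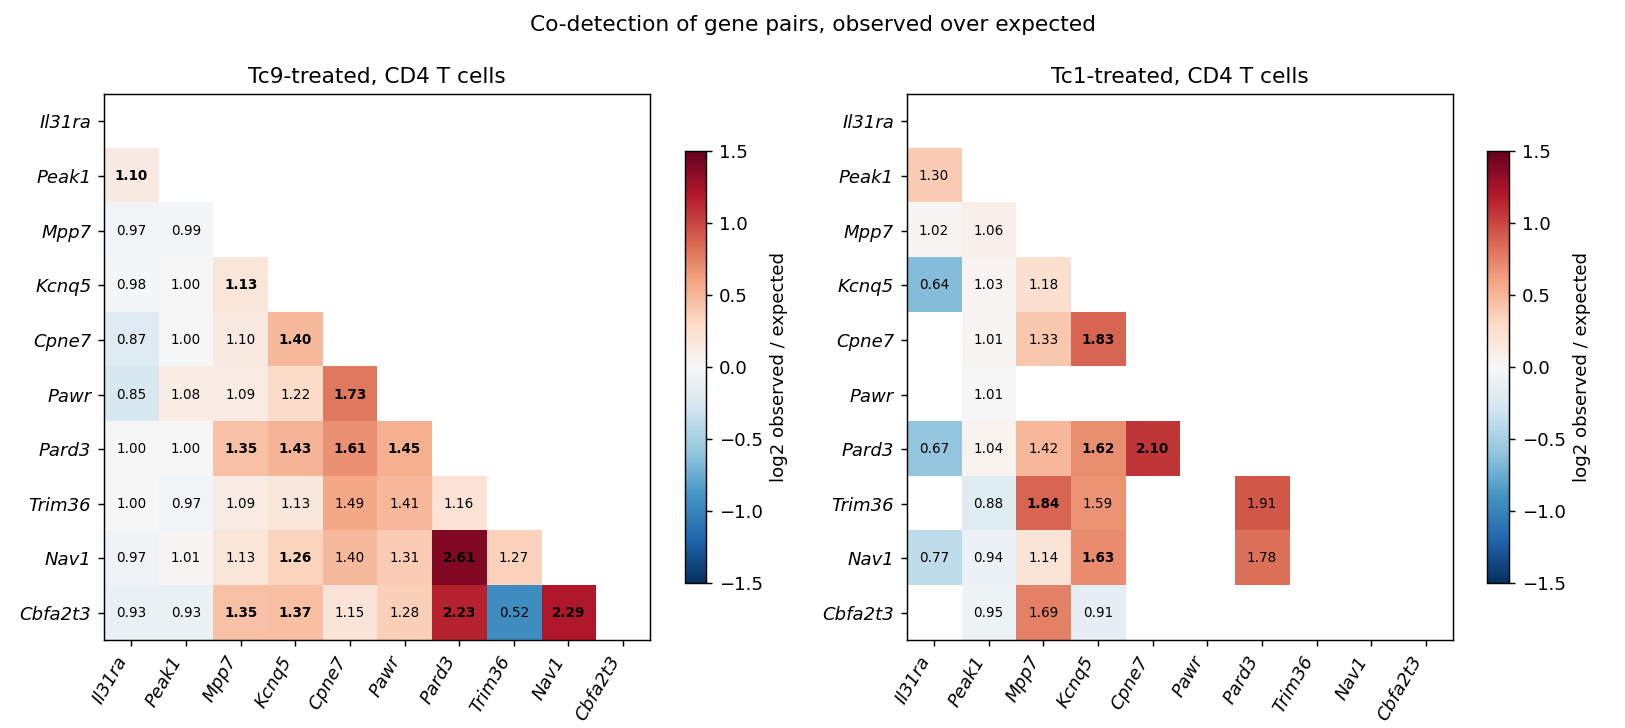
Observed over expected number of CD4 T cells with both genes of a pair, after thinning to 2000 UMIs, for Tc9 on the left and Tc1 on the right; the colour is the log2 of the printed ratio, bold marks an interval apart from 1, and pairs with under 5 expected cells are blank. Pard3 with Nav1 (2.61) and Cbfa2t3 (2.23), Nav1 with Cbfa2t3 (2.29) in Tc9 and Pard3 with Cpne7 (2.10) in Tc1 stand out in this draw, and Il31ra and Peak1 are near 1 with most genes of Tc9. Pard3 with Cbfa2t3 was not above 1 in both thinning draws.

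In Tc9 Pard3, Cpne7, Pawr and Trim36 were found with Foxp3 in fewer cells than independence would give. The ratios were 0.07 for Cpne7, 0.17 for Pard3, 0.20 for Trim36 and 0.34 for Pawr, all with intervals below 1. These 4 genes had been grouped by their lower level in the Foxp3 class, so this restates that grouping and is no separate support. Nav1 (0.31, 0.12 to 0.63), Cbfa2t3 (0.23, 0.05 to 0.67) and Kcnq5 (0.61, 0.49 to 0.76) also had intervals below 1 in Tc9. Of the 4 genes, Pard3 had an interval below 1 in Tc1. There Trim36 was at 0.71 (0.15 to 2.06), Cpne7 at 0.24 (0.01 to 1.31) and Pawr at 0 cells where 1.67 were expected. The classes were gated on Foxp3 before Cd40lg. Cpne7 and Foxp3 were together in 2 cells of Tc9 where 29.7 were expected (ratio 0.07, 0.01 to 0.24) and in 1 cell of Tc1 where 4.25 were expected, and Pard3 and Foxp3 in 7 cells of Tc9 where 41.1 were expected (0.17, 0.07 to 0.35) and in 2 cells of Tc1 where 9.19 were expected (0.22, 0.03 to 0.79). Mpp7 differed, with 156 cells of Tc9 where 122 were expected (1.28, 1.08 to 1.49) and 15 of Tc1 where 17.2 were expected. Among the other comparison genes, Pard3 was found with Il2 at 1.65 (1.20 to 2.22) in Tc9 and 1.99 (0.99 to 3.56) in Tc1, and with Gata3, the type 2 master regulator, at 1.36 (1.21 to 1.53) in Tc9 and 1.86 (1.40 to 2.43) in Tc1. This was not particular to Il2 and Gata3. Intervals of Pard3 were also above 1 with Cd40lg (1.30 in Tc9, 1.53 in Tc1) and Runx3 (1.21 in Tc9, 1.45 in Tc1). The same held for Cd44 in Tc9 (1.19) and for Cd28 (1.34) and Itgb1 (1.37) in Tc1. With Stat3 (0.96 in both) and Areg (0.90 in Tc9, 0.93 in Tc1) its intervals included 1. The 8 genes whose detection went most with that of 2 or more of the 10 genes in Tc9 had ratios of 1.20 to 1.30, and of these only Gm15564 was among the 8 in a second thinning.

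Receptor sequences gave a grouping that did not use gene expression beyond the CD4 gate, within which clonotype sizes were counted. In clonotypes of at least 3 cells, defined by identical alpha and beta chains, 30.2% (26.6 to 33.8) of 650 CD4 T cells of Tc9 and 28.0% (21.3 to 35.4) of 168 of Tc1 had at least 1 of the 6 less abundant genes. In clonotypes of 1 cell the shares were 12.7% (9.33 to 16.7) of 339 cells of Tc9 and 8.50% (5.63 to 12.2) of 306 cells of Tc1. Among cells with a single receptor pair, expanded clonotypes thus had the higher share in both libraries, by more than the counting intervals. Most thinned CD4 T cells had no single receptor pair and so no clonotype size, 3125 of 4241 in Tc9 and 778 of 1291 in Tc1. In these cells the share was 32.5% in Tc9 and 28.0% in Tc1, no lower than in expanded clonotypes. Without Foxp3 and naive-like cells, an alternative added after seeing the data, the shares were 30.6% in clonotypes of at least 3 cells and 18.6% in those of 1 cell of Tc9, and 29.8% in clonotypes of at least 3 cells and 12.1% in those of 1 cell of Tc1. For at least 2 of the 10 genes they were 65.1% in clonotypes of at least 3 cells and 53.4% in those of 1 cell of Tc9, and 40.5% in clonotypes of at least 3 cells and 18.3% in those of 1 cell of Tc1. Cells of a clonotype share their source, so the number of independent units is smaller than that of cells.

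Several of the genes are long, and gene length moved with the ratio between the libraries. In CD4 T cells the median log2 ratio was -0.46 for genes spanning under 10 kb, -0.15 for 10 to 50 kb, 0.13 for 50 to 100 kb, 0.20 for 100 to 200 kb and 0.24 for over 200 kb, over the 98.2% of genes with an annotated span. The share at least 1.5-fold higher in Tc9 was 6.61% for 10 to 50 kb, 12.9% for 50 to 100 kb and 27.4% for over 200 kb. For over 200 kb it was 22.7% in Cd40lg cells, 32.6% in CD8 T cells and 51.9% in Foxp3 cells. The shares over all genes given above are lower than these for genes over 200 kb. Kcnq5 spans 564 kb (chromosome 1), Pard3 549 kb (chromosome 8), Mpp7 279 kb (chromosome 18), Nav1 254 kb (chromosome 1) and Peak1 217 kb (chromosome 9), while Il31ra spans 58.8 kb (chromosome 13) and Cpne7 17.9 kb (chromosome 8). Set against the median of their span class, the log2 ratios were 2.38 for Il31ra, 1.84 for Cpne7, 1.82 for Peak1, 1.65 for Pawr, 1.25 for Mpp7, 0.83 for Kcnq5, 0.62 for Trim36, 0.20 for Pard3, -0.42 for Nav1 and -0.79 for Cbfa2t3. The 6 genes higher in Tc9 kept that place, and Trim36 joined them. The part of unspliced RNA in these values was not tested.

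**Figure D5:**
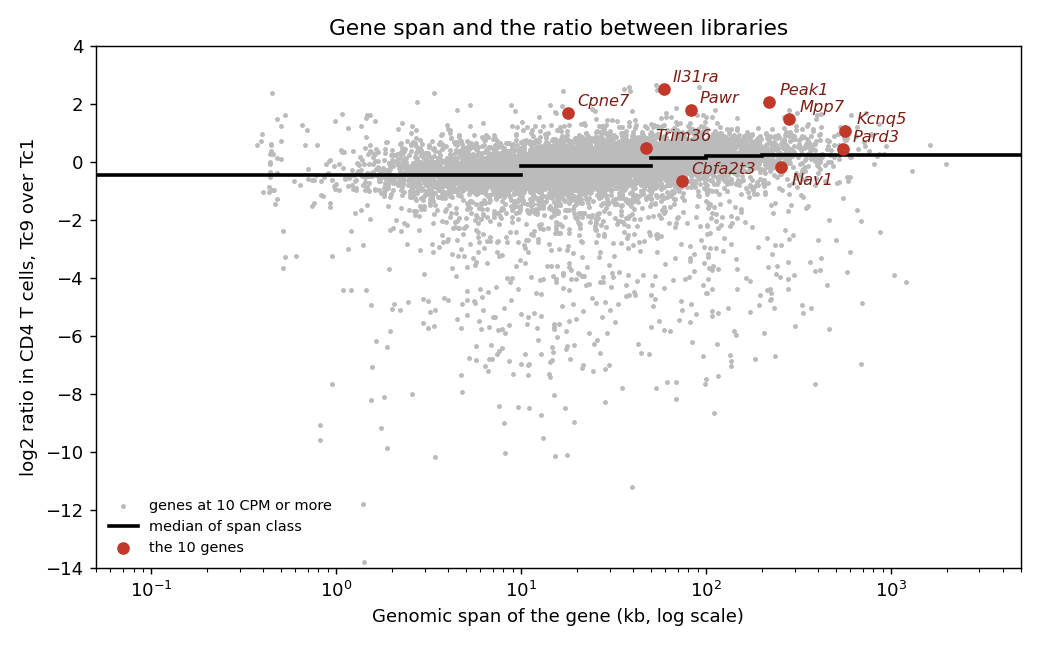
Genomic span of each gene (kb, log scale) against its log2 ratio of Tc9 over Tc1 in CD4 T cells, with genes of at least 10 CPM in grey, the median of each span class as a black line and the 10 genes in red. The black lines lie at -0.46 for the shortest and 0.24 for the longest genes, and Il31ra, Cpne7, Peak1 and Pawr lie at least 1.65 above the line of their class.

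Most of the known partners of these genes lay between the limits in CD4 T cells. Of the 12 other measured genes of interleukin-31 and oncostatin M receptor signalling, 2 were at least 1.5-fold higher in Tc9, Jak2 (308 CPM in Tc9 and 143 CPM in Tc1, 1.11) and Cish (259 CPM in Tc9 and 144 CPM in Tc1, 0.84), and 1 was lower, Osm (8.25 CPM in Tc9 and 74.7 CPM in Tc1, -3.18), beside 9.03% and 24.6% of all genes. Osm moved with the macrophage markers given above, and their part in its value was not tested. The list with Il31ra had a median of 0.13. Il6st, the shared receptor chain of this cytokine family, had 24.5 CPM in Tc9 and 33.8 CPM in Tc1 (-0.46). Osmr, the chain that pairs with Il31ra, had 8 UMIs in all CD4 T cells of Tc9 and 1 in those of Tc1, and the ligand Il31 had 0 in both, which allows up to 3 UMIs per library. Il31ra was thus measured in cells where its partner chain was almost undetected.

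The counts of each list below stand beside 9.03% higher and 24.6% lower of all genes. Of the 10 other measured polarity genes, Prkcz, an atypical protein kinase C, was higher (32.0 CPM in Tc9 and 14.7 CPM in Tc1, 1.13) and Patj lower (9.28 CPM in Tc9 and 20.5 CPM in Tc1, -1.14). The median of that list, with Pard3, Pawr and Mpp7, was 0.44. Among 13 other genes of the ETO and RUNX list 2 were higher, Runx2 (0.76) and Runx1 (0.65), and the list's median with Cbfa2t3 was 0.07. Of 4 other potassium channel genes of T cells Kcnab2 (0.90), Kcnk5 (0.62) and Kcnn4 (0.60) were higher and Kcna3 (-1.10) was lower. Cpne2 (3.04 CPM in Tc9 and 17.4 CPM in Tc1, -2.51) was lower among 3 other copines, Nav2 (1.20) was the other measured navigator, Mid1 (1.23) the other measured gene of the Trim36 list, and 0 of 7 other genes of the PEAK list passed the limit. Helper genes were higher for 8 of 13 and lower for 2, with a list median of 0.88. Icos (439 CPM in Tc9 and 130 CPM in Tc1) and Cd40lg (383 CPM in Tc9 and 160 CPM in Tc1) were among the higher. Tnf (-1.03) and Egr2 (-1.14) were the lower ones. Type 2 genes were higher for 8 of 11 and lower for 2, with a median of 1.14. Il13 (48.2 CPM in Tc9 and 9.37 CPM in Tc1) and Areg (424 CPM in Tc9 and 109.8 CPM in Tc1) were among the higher. Ccr8 (-0.62) and Calca (-1.73) were the lower ones. All these lists were chosen with earlier results of these data known and describe the same contrast that chose the members.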

How the data were processed

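Droplet 5′ single-cell RNA and T cell receptor libraries of tumour cells sorted for CD4 were analysed, 1 of each kind per group. The authors deposited counts of UMIs per gene and barcode, made with Cell Ranger 7.0.0, per the file headers and the submitters' processing notes, which name mm10. Whether intron reads were counted is not given in the sources used here. Receptor contigs with their counts of reads and UMIs are as deposited by the authors.

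Barcodes under 500 genes or over 10% mitochondrial UMIs were left out. T cells had at least 2 UMIs of T cell markers with 1 of a Cd3 gene, and macrophage UMIs of at most 0.3%. NK and naive-like cells needed 2 markers, and myeloid cells at least 1% of macrophage or antigen-presentation UMIs without a Cd3, NK or B cell marker UMI. Doublets were not called, and alternatives removed barcodes with 2 beta chains or with macrophage UMIs. Levels are summed UMIs scaled to 1000000 with exact Poisson intervals, ratios have exact conditional intervals and shares exact Clopper-Pearson intervals. A difference of 1.5-fold was counted as higher or lower, and classes under 50 cells are given as UMIs. Detection was compared after thinning cells to 2000 UMIs, and ratios of pairs needed 5 expected cells. The scripts were tested on simulated data. The members, the gene lists and the rule naming them (all 10 members, up to 4 genes per list by size of the ratio, 8 partner genes detected in at least 2% of cells) were chosen with earlier results of these data known. Python 3.11.15, numpy 2.4.6, scipy 1.17.1, pandas 2.3.3 and matplotlib 3.10.9 were used.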

Additional observations from a re-analysis of the deposited data

How the results depend on the processing

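The count of genes at least 1.5-fold higher in Tc9 CD4 T cells stayed between 6 and 8 of 10 under the alternatives run, and Il31ra, Peak1, Mpp7, Kcnq5, Cpne7 and Pawr were among them in each of 14 settings. The log2 ratio of Cbfa2t3 turned to 1.07 among cells with no macrophage or haemoglobin UMI, which left 4120 CD4 T cells in Tc9 and 329 in Tc1, and to 0.47 under the limit on antigen-presentation UMIs, chosen after seeing the data. The median log2 ratio moved to 1.18 among cells with no macrophage or haemoglobin UMI, to 1.42 with scaling by the median ratio of genes, which shifts all genes by 0.14, to 1.11 with the CD4 classes weighted equally and, in a setting added after seeing the data, to 1.04 against genes of the same span. The difference between Tc9 and Tc1 in the share of cells with at least 2 genes moved to 27.1 percentage points without naive-like cells and 23.0 with thinning to 1000 UMIs, and, both added after seeing the data, to 33.5 with or without a Cd4 UMI and 21.0 without Peak1. The causes were not tested. Of the other alternatives, 60 summary values and 91 single-gene values moved less than their limits and 37 single-gene values more. No paired analysis was possible because each group had 1 library. Genes under 10 CPM, and classes such as the 60 myeloid cells of Tc9, are limited by depth.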
